A study of Mus musculus with 2 samples.

Results

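The aminoacyl-tRNA synthetases of mouse liver were described in 1 library from Rcrin conditional knockout mice and 1 library from WT mice, which carried floxed Rcrin alleles. Both libraries were made from liver RNA and carry a time label of 8 weeks. The members were the protein-coding genes whose GENCODE M21 symbol has the form of a synthetase name (Aars, Aars2, Farsa, Eprs, Tarsl2 and the like). They numbered 38 of the 55421 genes in the tables, and 21 were grouped as cytosolic and 17 as mitochondrial. A symbol that ends in 2 marks a mitochondrial enzyme. Tarsl2 was the exception and was placed with the cytosolic genes, because it encodes a further threonyl-tRNA synthetase of the cytosolic type. The labels give neither the cells in which Rcrin was deleted nor the promoter of the recombinase nor the number of mice behind a library. Rcrin itself was not analysed here.

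Each synthetase joins 1 amino acid to its own tRNAs, using ATP, and so sets which amino acid a codon is read as. Mammals encode separate sets of these enzymes in the nucleus for the cytosol and for mitochondria, where they serve the translation of the few proteins made from mitochondrial DNA. Gars and Kars are known to supply both compartments, and Eprs joins glutamyl- and prolyl-tRNA synthetase in a single chain. The enzymes fall into structural classes I and II by the fold of the catalytic domain. In liver, which takes up and breaks down amino acids from the portal blood, the cytosolic set also supports the making of plasma proteins.

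The knockout library held 63587567 counts and the WT library 65121596. Ratios are of the knockout over WT library after TMM scaling, and each has an exact 95% interval that covers counting error only. Each genotype has 1 library, so the spread between mice is unknown, no test was possible, and every difference is one between these libraries. Calls of higher or lower were made from a 2-fold ratio, a log2 ratio of 1 in size. Levels are counts per 1000000 scaled counts (CPM). Markers of hepatocytes were present in both libraries, with a log2 ratio above 0 for 6 of 6 genes. They summed to 125365 CPM in the knockout library and 78390.3 CPM in the WT library. Of the 4 pancreatic markers, Cpa1 and Prss2 were at 0 in both libraries. Cela1 had 2242 counts in the knockout library and 1166 in the WT library (log2 ratio 1.03). Cela2a had 89 in the knockout library and 194 in the WT library (-1.03). Summed erythroid markers stood at 562 CPM in the knockout library and 1837 CPM in the WT library, with a log2 ratio above 0 for 1 of the 4 genes compared and below 0 for 3. Neutrophil markers stood at 17.2 CPM in the knockout library and 40.8 CPM in the WT library (4 of 4 compared below 0). Lymphocyte markers stood at 14.0 CPM in the knockout library and 41.0 CPM in the WT library, and Kupffer cell markers at 787 CPM in the knockout library and 1022 CPM in the WT library. Of the 6 Kupffer cell markers 4 had a log2 ratio below 0 and 2 above, Vsig4 at 1.02 and Timd4 at 0.41. In bulk tissue, fewer cells of a type and less RNA per cell cannot be told apart, and the part of cell makeup in the values below was not tested.

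Synthetase genes differed little between the libraries. All 38 had a mean of at least 50 counts, the minimum for a comparison. Of these, 35 lay within 2-fold, 0 were higher and 3 were lower in the knockout library (Lars2, Wars2 and Mars2, all mitochondrial). Over the 12064 genes compared, 8.45% were higher and 8.61% were lower by that limit, so the share of lower members, 7.89%, was near that of all genes. Where genes averaged 500 counts or more, 6.26% were higher and 6.44% lower, and among those that also have at least 3 exons 5.89% and 5.92%. By these criteria 1 member, Lars2, was lower. The median log2 ratio was -0.05 over the members and -0.01 over all genes compared. The middle of the distribution was narrower among the members, with an interquartile range of 0.59 against 0.88 over all genes. Among genes with at least 3 exons and a mean of at least 500 counts it was 0.77. Past 1.5-fold lay 8 members (21.1%), against 37.8% of all genes. The exact interval of 9 members included a log2 ratio of 0. All synthetase genes together held 82307 counts in the knockout library and 91122 in the WT library, which is 1317 CPM in the knockout library and 1375 CPM in the WT library. The log2 ratio of these sums was -0.06 (interval -0.08 to -0.05).

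**Figure D1:**
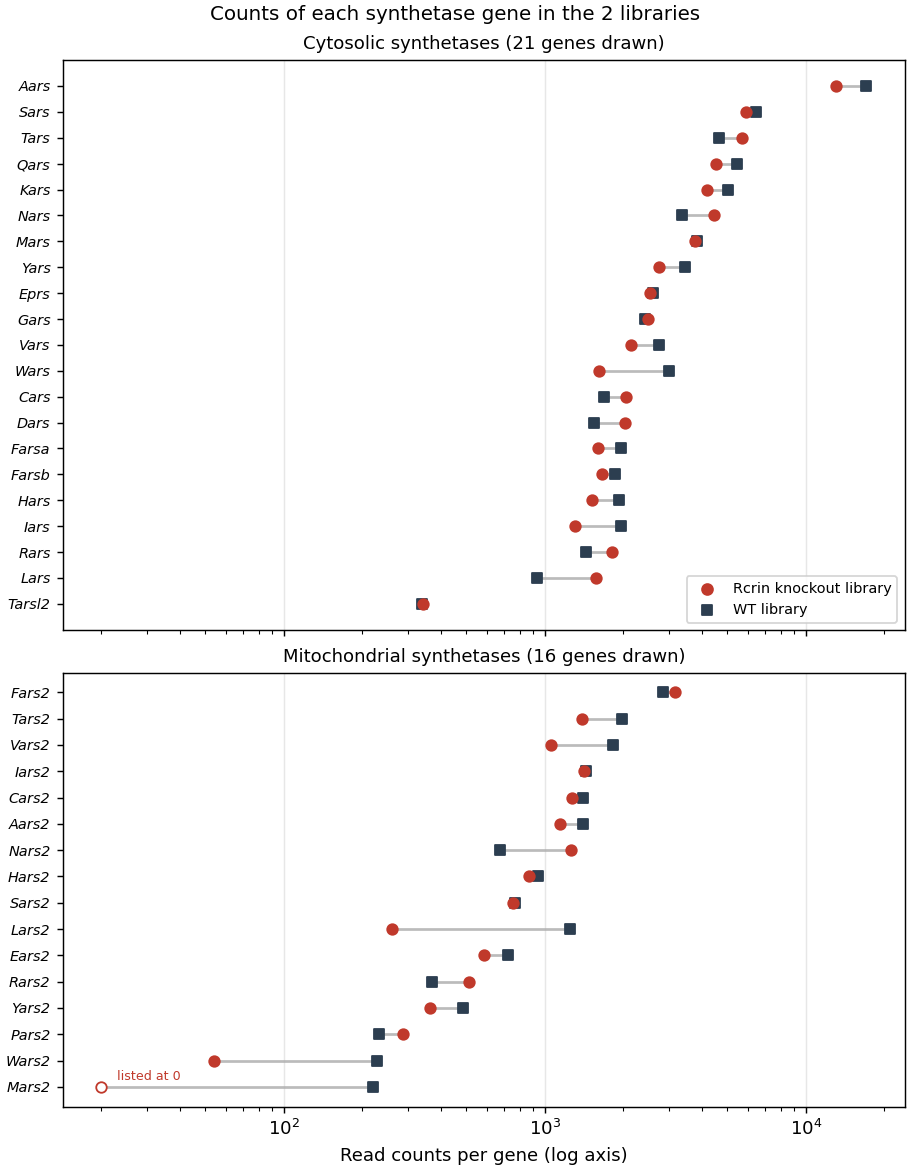
Read counts of each synthetase gene on a log axis, with circles for the Rcrin knockout library and squares for the WT library, 21 cytosolic genes above and 16 of the 17 mitochondrial genes below. Most pairs of points lie close together, and the widest gaps are those of Lars2 (259 and 1250 counts), Wars2 (54 and 228 counts) and Mars2 (0 and 220 counts, drawn as an open circle at the left).

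None of the 21 cytosolic genes was past 2-fold. Their median log2 ratio was -0.04, with 10 above 0 and 11 below. The cytosolic genes together stood at 1070 CPM in the knockout library and 1111 CPM in the WT library (log2 ratio -0.05, interval -0.07 to -0.04). They ran from the tryptophanyl enzyme Wars at -0.81 to the leucyl enzyme Lars at 0.84, and these were the only cytosolic genes past 1.5-fold.

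Lars charges leucine tRNAs and is also known as a leucine sensor upstream of mTORC1. It had 1573 counts in the knockout library and 930 in the WT library, 1.79-fold higher (interval of the log2 ratio 0.73 to 0.96). Wars had 1613 counts in the knockout library and 2997 in the WT library, 1.75-fold lower (interval -0.90 to -0.72). Wars is known as an interferon-induced gene. The isoleucyl enzyme Iars, next from below, had 1300 counts in the knockout library and 1960 in the WT library (log2 ratio -0.51).

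Below Lars, 5 cytosolic genes had log2 ratios between 0.37 and 0.49, with intervals above 0. The asparaginyl enzyme Nars had 4432 counts in the knockout library and 3355 in the WT library (log2 ratio 0.49). The aspartyl enzyme Dars had 2021 counts in the knockout library and 1541 in the WT library (0.48), and the arginyl enzyme Rars had 1815 in the knockout library and 1436 in the WT library (0.42). The cysteinyl and threonyl enzymes Cars and Tars both had a log2 ratio of 0.37. All 5 were under 1.5-fold.

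The remaining cytosolic genes lay between -0.30 and 0.12. The alanyl enzyme Aars was the most abundant of all members by counts, with 13015 in the knockout library and 17042 in the WT library (log2 ratio -0.30, interval -0.34 to -0.27). Next above it came the valyl enzyme Vars (-0.26), the histidyl enzyme Hars (-0.25), the tyrosyl enzyme Yars (-0.24) and Farsa (-0.21), the catalytic subunit of the phenylalanyl enzyme. Its partner subunit Farsb stood at -0.08, with an interval that included 0. The glutaminyl enzyme Qars (-0.19) and the lysyl enzyme Kars (-0.18) lay slightly below 0, and the glycyl enzyme Gars (0.12) slightly above it. The intervals of the seryl enzyme Sars (-0.04), the bifunctional Eprs (0.04), the methionyl enzyme Mars (0.06) and Tarsl2 (0.10) all included 0. Tarsl2 was the least abundant cytosolic member, with 341 counts in the knockout library and 337 in the WT library.

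**Figure D2:**
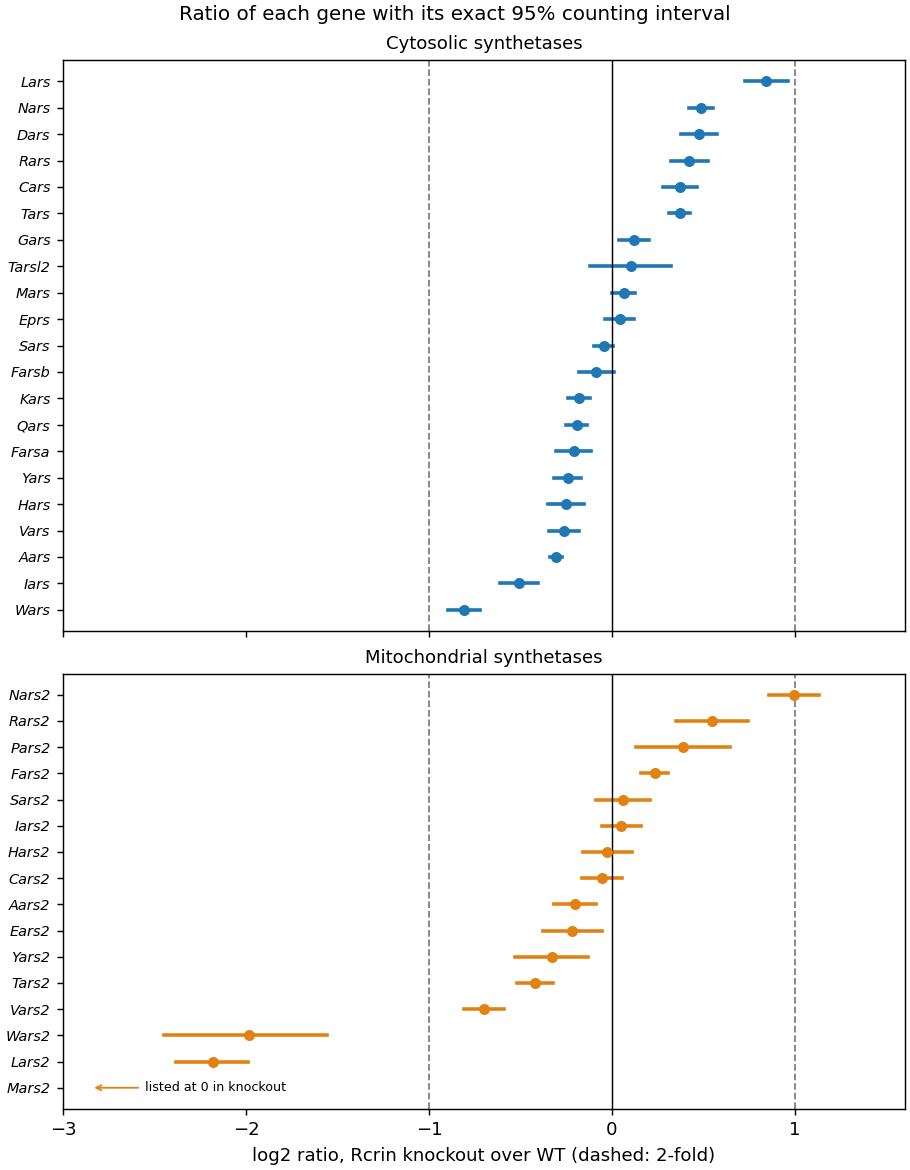
Log2 ratio of the Rcrin knockout over the WT library for each synthetase gene (points) with its exact 95% counting interval (bars), for 21 cytosolic and 16 of the 17 mitochondrial genes, with dashed lines at 2-fold. All cytosolic genes lie between the dashed lines, while Lars2 (-2.18) and Wars2 (-1.98) lie beyond the lower one, Mars2 is listed at 0 in the knockout library, and Nars2 (0.99) touches the upper one.

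The mitochondrial genes had nearly the same median as the cytosolic ones. Their median log2 ratio was -0.06, with 7 above 0 and 10 below, so the cytosolic median exceeded the mitochondrial one by 0.01. The mean of the mitochondrial genes was -0.70 with 0.5 reads added to the gene listed at 0, and -0.55 with a floor of 3 counts set for it, so the mean rests on that constant. Together they stood at 247 CPM in the knockout library and 264 CPM in the WT library (log2 ratio -0.09, interval -0.12 to -0.06). Of the 17 genes, 3 were lower past 2-fold (17.6%, against 8.61% of all genes), 0 were higher and 6 were past 1.5-fold either way. Of the cytosolic genes, 0 were past 2-fold and 2 past 1.5-fold. The mitochondrial share past 1.5-fold, 35.3%, was near the 37.8% of all genes, and the cytosolic share was 9.52%. Mitochondrial genes were also counted less deeply, with a median gene at 902.5 counts (mean of the 2 libraries), against 2436 counts for the cytosolic genes. Without Mars2, Lars2 and Wars2, the mitochondrial median was 0.01 and the summed log2 ratio 0.03.

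Lars2, the mitochondrial leucyl-tRNA synthetase (ENSMUSG00000035202, GRCm38 chromosome 9 from 123366927 to 123462666), was the lowest member with counts in both libraries. It had 259 counts in the knockout library and 1250 in the WT library, 4.54-fold lower (log2 ratio -2.18, interval -2.38 to -1.99). Lars2 has 21 exons, and the ratio was -2.15 after a trend with GC content was removed. The mouse Lars2 locus is known to hold sequence that resembles ribosomal RNA. Of the transcripts annotated at a ribosomal RNA locus, Gm42418 had 5249 counts in the knockout library and 5210 in the WT library. The overlapping AY036118 was listed at 0 in the knockout library and had 48475 counts in the WT library. Both have a single exon. A one-sided absence of counts was common for compared genes of that kind (30.8%). The 0 of AY036118 is therefore not read as a difference in ribosomal RNA. The part of ribosomal RNA reads in the value of Lars2 was not tested.

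Wars2, the mitochondrial tryptophanyl-tRNA synthetase (ENSMUSG00000004233, chromosome 3 from 99141068 to 99239186), has 9 exons and was thinly covered. It had 54 counts in the knockout library and 228 in the WT library, 3.95-fold lower (log2 ratio -1.98, interval -2.45 to -1.56). Among genes with at least 5 exons, to which Lars2 and Wars2 belong, 7.04% were lower past 2-fold. Both tryptophanyl genes thus stood lower, Wars by less than 2-fold.

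Mars2, the mitochondrial methionyl-tRNA synthetase (chromosome 1 from 55237177 to 55248470), was listed at 0 in the knockout library and had 220 counts in the WT library. It has a single exon, alone among the members. Of the 354 genes compared that have 1 exon, 30.8% were listed at 0 in 1 library, 15.3% in the knockout library only, against 0.125% of genes with at least 3 exons listed at 0 in either. The exact interval of its log2 ratio ends at -5.80, and no fold is given. Pars2, the prolyl enzyme and the only member with 2 exons (1.81% of such genes were listed at 0 in the knockout library only), had counts in both libraries, 285 in the knockout library and 231 in the WT library (log2 ratio 0.39). The other 36 members have 5 to 34 exons. Of the 13 protein genes of mitochondrial DNA, whose mRNAs these enzymes help translate, 12 were listed at 0 in the knockout library and 9 in the WT library, so their levels are not given.

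At the other end stood the mitochondrial asparaginyl enzyme. Nars2 (ENSMUSG00000018995, chromosome 7 from 96951505 to 97064758) had 1262 counts in the knockout library and 672 in the WT library, 1.99-fold higher (log2 ratio 0.99, interval 0.86 to 1.13), just inside the limit. The arginyl enzyme Rars2 had 511 counts in the knockout library and 371 in the WT library (0.55). Fars2, the single-chain mitochondrial phenylalanyl enzyme, was the most abundant mitochondrial member, with 3148 counts in the knockout library and 2841 in the WT library (0.23). It overlaps 11 other annotated genes, among them Nrn1 and Lyrm4 on the opposite strand, so some of its reads are uncertain without strand.

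Lower by less than 2-fold were the mitochondrial valyl enzyme Vars2, with 1055 counts in the knockout library and 1818 in the WT library (log2 ratio -0.70), the threonyl enzyme Tars2 (-0.42), the tyrosyl enzyme Yars2 (-0.33), the glutamyl enzyme Ears2 (-0.22) and the alanyl enzyme Aars2 (-0.20). Cars2 (-0.06), Hars2 (-0.02), Iars2 (0.05) and Sars2 (0.06) had intervals that included 0. Hars2 and Hars lie head to head and overlap on opposite strands, and in all 12 members overlap another protein-coding gene.

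Enzymes for the same amino acid could be set side by side for 14 amino acids that have separate cytosolic and mitochondrial genes. In 3 pairs both genes stood above 0 (arginine and asparagine among them), in 5 both stood below (alanine, histidine, tryptophan, tyrosine and valine), and 6 pairs went opposite ways. Arginine gave a log2 ratio of 0.42 for the cytosolic gene and 0.55 for the mitochondrial one, and asparagine one of 0.49 and 0.99. The widest opposite pair with counts throughout was leucine, with Lars at 0.84 and Lars2 at -2.18. Threonine was opposite by less, with Tars at 0.37 and Tars2 at -0.42. In the isoleucine pair Iars stood at -0.51 and Iars2 at 0.05. Not all signs were firm. The pairs of cysteine, isoleucine, methionine and serine (all opposite) and of histidine each hold a gene whose interval included 0. With the GC trend removed, the pairs of arginine (Rars -0.003, Rars2 0.26) and alanine (Aars -0.19, Aars2 0.05) went opposite ways. Those of cysteine, isoleucine and serine then shared a sign.

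**Figure D3:**
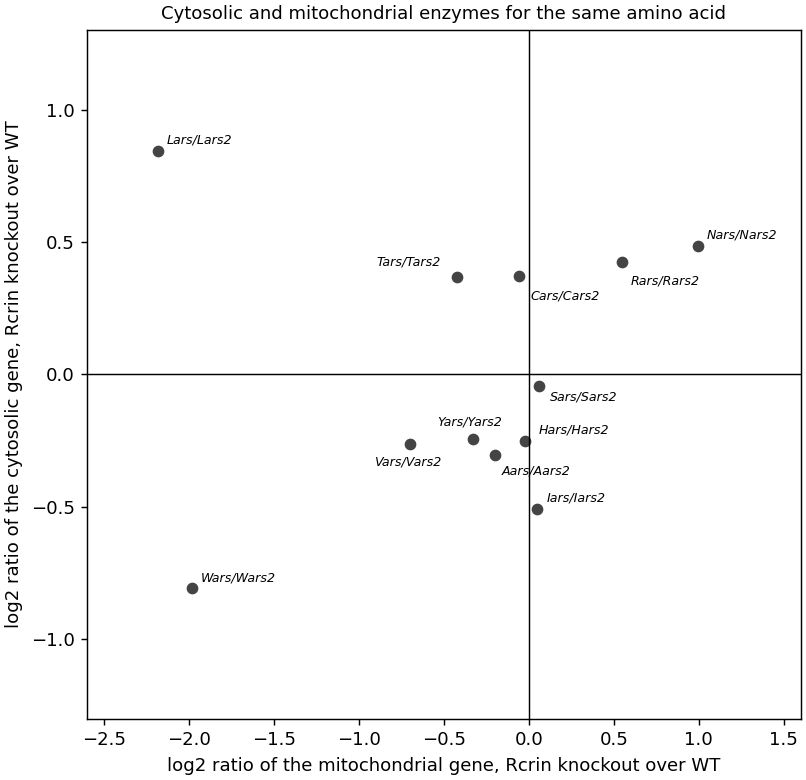
Log2 ratio (Rcrin knockout over WT) of the cytosolic gene on the vertical axis against that of the mitochondrial gene for the same amino acid on the horizontal axis, for 12 of the 14 pairs (methionine is not drawn because Mars2 is listed at 0 in the knockout library, and 1 other pair is left out). Most pairs lie near the centre, and the leucine and tryptophan pairs lie far to the left.

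Members named above as most or least abundant were ranked by counts, and the levels that follow are per length. Per kilobase of the longest protein-coding transcript, cytosolic genes had a median level of 14.0 CPM in the knockout library and 15.4 CPM in the WT library. Mitochondrial genes had one of 4.38 CPM in the knockout library and 4.24 CPM in the WT library. Aars was highest, at 36.2 in the knockout library and 44.7 in the WT library, followed by Kars, and Tarsl2 was the lowest cytosolic gene, at 1.71 in the knockout library and 1.59 in the WT library. Fars2 led the mitochondrial genes at 23.7 in the knockout library and 20.2 in the WT library, above most cytosolic ones. The cytosolic gene had the higher level in 13 of 14 pairs in the knockout library and in 12 in the WT library. The exceptions were cysteine in both libraries and leucine in the WT library, where Lars stood at 3.53 and Lars2 at 4.84. In the knockout library Lars stood at 6.33 and Lars2 at 1.06. With the median transcript length in place of the longest, the cytosolic gene was the higher in all 14 pairs of both libraries, so the exceptions rest on the length used.

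By structural class, class I enzymes had a median log2 ratio of -0.22 and class II enzymes one of 0.06, over 19 genes each, a difference of -0.28. Eprs was counted in class I for its glutamyl part, although its prolyl part is of class II. All 3 genes lower past 2-fold (Lars2, Wars2 and Mars2) are of class I. They make up 15.8% of that class, against 8.61% of all genes compared, and include the 1-exon gene Mars2, listed at 0. Among mitochondrial class I enzymes 7 of 9 stood below 0, with a median of -0.33. Among mitochondrial class II enzymes 5 of 8 stood above 0, with a median of 0.15. Of all genes compared, 49.2% stood above 0. The classes lay closer together in the cytosol, at -0.08 for class I and -0.04 for class II. Without Mars2, Lars2 and Wars2 the difference between the classes was -0.19, and it was -0.19 with the GC trend removed.

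In the cytosol 8 of the synthetases (Eprs, Iars, Lars, Mars, Qars, Rars, Kars and Dars) form the multisynthetase complex with the scaffold proteins Aimp1, Aimp2 and Eef1e1. The 8 enzymes had a median of 0.05 and the other 13 cytosolic genes one of -0.08. Counts of the complex were nearly equal in sum, at 347 CPM in the knockout library and 344 CPM in the WT library. The scaffold genes were listed with the partner genes. Aimp1 had 2066 counts in the knockout library and 1262 in the WT library (log2 ratio 0.80). Eef1e1 had 1324 in the knockout library and 948 in the WT library (0.57), and Aimp2 had 938 in the knockout library and 1173 in the WT library (-0.24). All 3 lay within 2-fold.

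GC content moved with the ratios. Transcripts of the 17 members above 0 had a median GC content of 47.7%, and those of the 20 members below 0 with counts in both libraries one of 52.4%. Across these 37 genes, which share both libraries, the log2 ratio and GC content had a Pearson r of -0.38 and a Spearman rho of -0.50. Across 11915 compared genes with counts in both libraries the values were -0.23 and -0.33. With the GC trend of all genes removed, 9 members changed sign, Lars stood at 0.71, Nars2 at 0.70, Wars at -0.67 and Vars2 at -0.43. Rars came to -0.003 and Dars to 0.06, and these are the members with counts in both libraries that have the lowest GC content, 41.0% and 41.2%. Past 1.5-fold there remained 2 higher and 4 lower members, and Lars2, Wars2 and Mars2 were again the members lower past 2-fold.

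**Figure D4:**
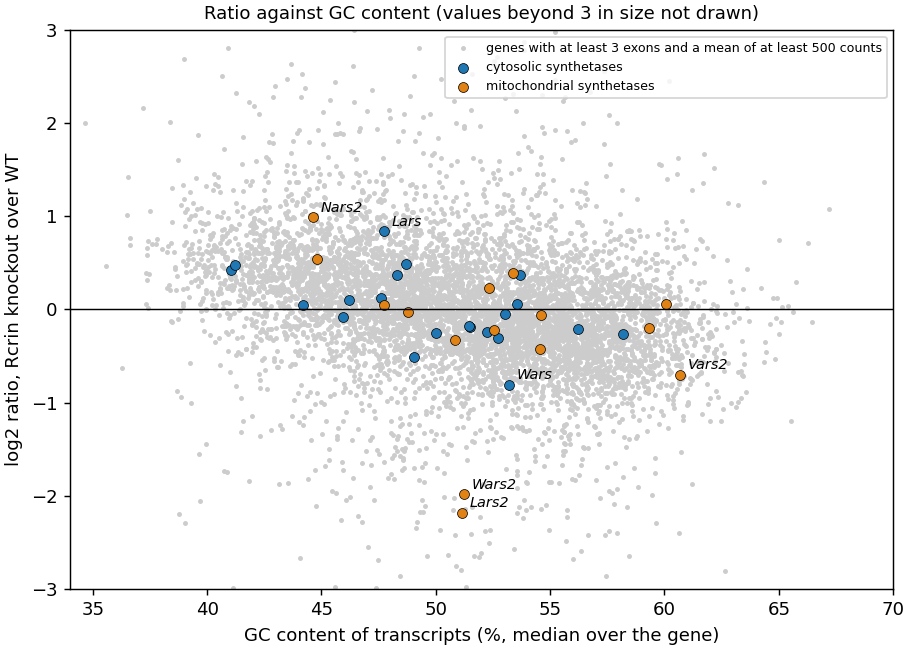
Log2 ratio (Rcrin knockout over WT) against the GC content of transcripts, for synthetase genes (coloured by compartment) and for other genes with at least 3 exons and a mean of at least 500 counts (grey), with Mars2 and 1 other mitochondrial member left out. Grey and coloured points alike slope down from low to high GC content, and Lars2 and Wars2 lie far below the other members near 51% GC.

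Promoter sequence was examined for an element through which several cytosolic synthetase genes are known to answer amino acid shortage. ATF4, a transcription factor made in larger amounts when amino acids run short, binds elements with the core TGATGNAA, of which the asparagine synthetase gene Asns carries a well known copy. RefSeq starts on GRCm38.p6 were given for 27 members, 13 cytosolic and 14 mitochondrial. The core stood on either strand within 250 bases before the start in 3 of the 13 cytosolic genes (Aars, Gars and Tars) and in 0 of the 14 mitochondrial genes. Of all 27025 genes with a promoter given, 3.91% held it. The 120 bases before the start are shown for these 3 genes and for Asns, 5′ to 3′ on the strand of the gene, with the core or its reverse complement in capitals.
Aars (chr8:111033722-111033841, plus strand): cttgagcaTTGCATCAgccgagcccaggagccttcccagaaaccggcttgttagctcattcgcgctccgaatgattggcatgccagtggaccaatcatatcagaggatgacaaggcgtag
Gars (chr6:55037881-55038000, plus strand): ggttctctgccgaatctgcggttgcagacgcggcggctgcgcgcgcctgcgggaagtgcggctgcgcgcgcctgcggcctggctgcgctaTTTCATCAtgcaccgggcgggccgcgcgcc
Tars (chr15:11399659-11399778, minus strand): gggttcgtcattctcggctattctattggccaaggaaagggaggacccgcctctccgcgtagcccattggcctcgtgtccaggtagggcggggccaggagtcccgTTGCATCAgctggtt
Asns (chr6:7693210-7693329, minus strand): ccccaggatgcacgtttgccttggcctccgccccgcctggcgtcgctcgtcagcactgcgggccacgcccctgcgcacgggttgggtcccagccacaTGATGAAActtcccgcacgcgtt

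The core lies 112 bases before the start in Aars, 30 in Gars, 15 in Tars and 23 in Asns. The genes that hold it did not share a ratio. Aars stood at -0.30, Gars at 0.12 and Tars at 0.37. Asns had 58 counts in the knockout library and 349 in the WT library (log2 ratio -2.49, interval -2.93 to -2.10). Of the 27 genes of the amino acid response list below with a promoter given, 7 held the core, Asns among them. Of the others, Fgf21 (1.20), Vldlr (0.96) and Nupr1 (0.41) stood above 0 and Chac1 (-0.19) below it. The intervals of Nupr1 and Chac1 included 0. Pycr1 and Slc7a11 were under the minimum count for a comparison. The same window before the 3 mitochondrial genes farthest from 0 with counts in both libraries is shown for comparison, with no capitals because the core is not in it.
Lars2 (chr9:123366807-123366926, plus strand): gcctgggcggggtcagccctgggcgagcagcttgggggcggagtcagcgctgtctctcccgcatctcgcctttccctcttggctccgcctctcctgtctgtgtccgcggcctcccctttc
Wars2 (chr3:99140970-99141089, plus strand): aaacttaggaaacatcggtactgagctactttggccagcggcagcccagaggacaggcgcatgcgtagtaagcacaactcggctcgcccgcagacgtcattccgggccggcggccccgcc
Nars2 (chr7:96951407-96951526, plus strand): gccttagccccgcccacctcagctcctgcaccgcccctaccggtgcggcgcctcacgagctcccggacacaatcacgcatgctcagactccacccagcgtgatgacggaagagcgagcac

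Motifs known from promoters of genes for mitochondrial function were searched in the same windows of 250 bases on both strands. The NRF1 core stood before Kars and Tars and before 0 of the 14 mitochondrial genes, with 4.23% of all genes holding it. In Tars it lies farther from the start than the TGATGNAA core and does not overlap it. The ETS core CCGGAAGT stood before Farsa alone, with 3.23% of all genes holding it. A match describes the letters of the window only.

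Genes of the amino acid response had a median log2 ratio of -0.02 over the 25 of 30 listed genes that were compared. Of these, 3 were higher past 2-fold (12%, against 8.45% of all genes), 2 were lower (8%, against 8.61%) and 20 lay between. The lower ones were Asns and the amino acid exchanger Slc7a5, with 18 counts in the knockout library and 399 in the WT library (-4.35). Higher were the genes of the stress hormones Gdf15, with 4683 counts in the knockout library and 1556 in the WT library (1.67), and Fgf21, with 98 in the knockout library and 45 in the WT library (1.20). The transcription factor gene Cebpb had 7817 counts in the knockout library and 3500 in the WT library (1.24). Gdf15 and Fgf21 have 3 exons and Cebpb has 1, and of the genes with 3 exons 28.2% were past 2-fold either way. Atf4 itself had 14092 counts in the knockout library and 10120 in the WT library (0.56). Lowest after the 2 called genes came Aldh18a1, of proline synthesis, at -0.87. Ddit3, which overlaps Mars on the opposite strand, had 703 counts in the knockout library and 986 in the WT library (-0.40).

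**Figure D5:**
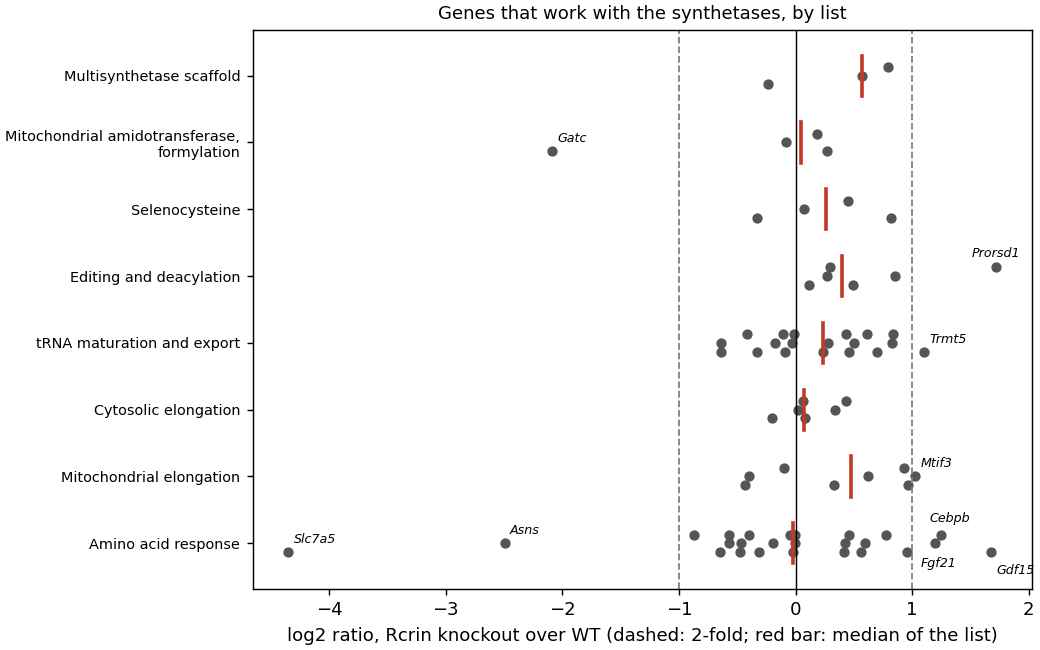
Log2 ratio (Rcrin knockout over WT) of each compared gene that works with the synthetases or belongs to the amino acid response, by list, with a red bar at the median of each list and dashed lines at 2-fold. Of 75 genes compared, 6 (8%) lie to the right of the upper dashed line and 3 (4%) to the left of the lower one. Of all genes compared, 8.45% and 8.61% lie beyond these limits.

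Mitochondria have no glutaminyl-tRNA synthetase of their own. Ears2 loads glutamate on the glutamine tRNA, and an amidotransferase of Qrsl1, Gatb and Gatc converts it. Gatc had 139 counts in the knockout library and 630 in the WT library (log2 ratio -2.09, interval -2.37 to -1.83). It has 3 exons, and of the genes with 3 exons 13.4% were lower past 2-fold. The other subunits lay within 2-fold, with Qrsl1 at -0.08 and Gatb at 0.27. Mtfmt, which formylates the initiator methionine tRNA, stood at 0.18.

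Cytosolic elongation genes had a median of 0.07 over 6 genes, from Eef1g at -0.20 to Eef1b2 at 0.43. Eef1a1, which delivers the charged tRNA to the ribosome, had 296153 counts in the knockout library and 248773 in the WT library (0.34). Mitochondrial translation factors had a median of 0.48 over 8 genes, with 4 higher past 1.5-fold (50%, against 19% of all genes) and 0 lower. Removal of the GC trend lowered this median to 0.29 and a minimum of 500 counts to 0.33, and the log2 ratio of the summed counts was -0.03. Among them Tufm, the mitochondrial counterpart of Eef1a1, was lowest at -0.43. Mtif3, an initiation factor, had 1585 counts in the knockout library and 827 in the WT library (1.02). It was the 1 gene of this list past 2-fold. With the GC trend removed Mtif3 stood at 1.13, and Tsfm of the same list, at 0.93 before, came to 1.12.

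Genes that proofread, finish or specially charge tRNA were described by list. All 6 editing and deacylation genes had a ratio above 0 (median 0.40), against 49.2% of all genes compared. Prorsd1, whose product resembles an editing domain of bacterial prolyl-tRNA synthetase, had 1385 counts in the knockout library and 445 in the WT library (1.72, interval 1.57 to 1.88) and was the only one past 2-fold, again a gene of 3 exons. Dtd1, which removes D-amino acids from tRNA, was lowest at 0.11. Genes of tRNA maturation and export had a median of 0.24 over 19 genes, but one of -0.03 over those averaging 500 counts or more, so its direction rests on that filter. The tRNA methyltransferase Trmt5 had 417 counts in the knockout library and 206 in the WT library (1.10). It was the 1 gene past 2-fold, but stood at 0.79, inside that limit, with the GC trend removed. The thiolation gene Ctu1 was lowest at -0.64. Of the selenocysteine genes 4 of 5 were compared, with a median of 0.26, from Secisbp2 at -0.33 to Sepsecs, which makes selenocysteine on its tRNA, at 0.82. Sephs2, a gene of 1 exon, was listed at 0 in both libraries. Over all 75 partner and response genes compared the median was 0.18. Past 2-fold, 6 were higher (8%) and 3 lower (4%), against 8.45% and 8.61% of all genes compared.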

How the data were processed

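Per the labels' protocols, Trizol was used for liver RNA and a SMARTER kit for mRNA libraries. Whole-number raw counts for Ensembl genes were deposited by the authors, 1 table a library. The submitters' processing notes name GRCm38 (mm10). The aligner, counter, annotation release, use of strand and treatment of reads with several matches are not given in the sources used here. GENCODE M21 (GRCm38) gave symbols, positions, exon numbers (the most in any transcript), transcript lengths and GC content, and held 55240 of 55421 genes. Promoters came from RefSeq, GRCm38.p6. Counts were scaled with TMM factors (edgeR 4.0.16, R 4.3.3), 0.982 for the knockout and 1.02 for the WT library, and 0.5 reads were added before log2. A gene was compared where its counts averaged 50 or more. Intervals are exact conditional (Clopper-Pearson), computed with SciPy 1.17.1. No molecular identifiers are named, so PCR copies may be among the reads and the intervals cover counting error only. GC trends were fitted with lowess in statsmodels 0.14.6. The calculations were tested on simulated counts. Members and lists were chosen with earlier results of these data known. The rule for names took every member (1 mitochondrial member enters the counts and medians but is not reported here by name) and, of the partner lists, the genes past 2-fold and the highest and lowest of each list. Atf4, Ddit3, Mtfmt, Qrsl1, Eef1a1, Eef1e1, Sephs2, Tsfm and Aldh18a1, and the promoters of Aars, Gars, Tars and Asns, were added after their values were seen. So were Vldlr, Nupr1, Chac1, Pycr1 and Slc7a11, as response genes that hold the TGATGNAA core. Alternatives were DESeq2 1.42.0 size factors and those given below.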

Additional observations from a re-analysis of the deposited data

How the results depend on the processing

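Under DESeq2 size factors, scaling by total count, 5 reads added and removal of the GC trend, 0 members were higher and 3 lower past 2-fold, as reported. Dropping the filter on low counts could not alter these member counts, because all 38 members average at least 50 counts. With at least 3 exons or a 4-fold limit 2 were lower, and 3 had an interval wholly beyond 2-fold. A minimum mean of 500 counts left 1 member past the limit, because Wars2 and Mars2 fall below it, and 4 partner genes in place of 9. That minimum put the median of the amidotransferase list at 0.23, and removal of the GC trend put those of cytosolic elongation at 0.26 and the scaffold at 0.35. A limit of 1.5-fold gave 8 members, 3 higher and 5 lower. Taking means, not medians, which brings in the value of Mars2 set by the 0.5 reads added, gave a mitochondrial value of -0.70, a cytosolic minus mitochondrial difference of 0.71 and a class I minus class II difference of -0.85. The compartment difference of 0.01 has no firm sign: it was -0.02 with a mean of at least 500 counts or with Tarsl2 counted as mitochondrial, and -0.06 without Mars2, Lars2 and Wars2, an alternative chosen after seeing the data, as were all those for the structural classes and the longest-transcript levels. Of 222 member values under 6 alternatives, 28 left their counting interval, 26 of them with the GC trend removed. Among the 222, 0 changed side of 2-fold. The settings with no filter and with a mean of at least 500 counts only choose genes, so the member values under them could not move. No paired analysis was possible because each genotype has 1 library. Depth limits Wars2, Mars2 and Pars2 most.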
